A study of Arabidopsis thaliana with 8 samples.

Results

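The genes described here are 106 of the 33518 Arabidopsis genes counted in the series. Their transcripts stood higher in dark-grown seedlings that lack 4 PHYTOCHROME INTERACTING FACTORS (PIFs) than in wild type, and lower again when an active form of the transcription factor BZR1 was added. RNA was sequenced from 8 libraries of etiolated seedlings in the Col-0 ecotype, with 2 libraries for each of 4 genotypes. The genotypes were wild type (called Col-0 below), the bzr1-1D mutant, the pifq mutant, in which PIF1, PIF3, PIF4 and PIF5 are missing, and a combination of both, pifq;bzr1-1D, called the combined mutant below. All 4 genotypes were 5 days old and were kept in the dark on MS medium with brassinazole (BRZ), which blocks the synthesis of brassinosteroid hormones, so low hormone is shared by every group. Libraries held 16109238 to 34388943 counts on genes. The labels give no word on whether replicate libraries stem from separate cultures.

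PIFs are basic helix-loop-helix transcription factors that accumulate in darkness and hold back greening, chloroplast development and other light responses, and light removes them through phytochrome. BZR1 is the transcription factor at the end of the brassinosteroid pathway, and bzr1-1D is a dominant change that keeps the protein active when the hormone is low. PIF4 and BZR1 can bind each other and share many target genes. Making ribosomes, folding imported plastid proteins and building the plastid's own transcription machinery are among the processes a seedling turns up when it leaves the dark programme.

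The members were chosen by measured values. Counts were divided by the library total of gene counts and expressed as CPM (counts scaled to a common library size), the 2 libraries of a genotype were averaged, and 0.5 was added to each mean. A member had pifq at least 2 times Col-0, pifq;bzr1-1D at most 0.5 times pifq, bzr1-1D between 0.5 and 2 times Col-0, and a pifq mean of at least 5 CPM. Of 610 genes that met the pifq cuts, 121 also met the cut in pifq;bzr1-1D, 12 of these fell outside the bounds for bzr1-1D, and 3 were left out by name (FLS1, the chalcone isomerase gene TT5, and PSB28). Ratios of pifq to Col-0, of pifq;bzr1-1D to pifq and of bzr1-1D to Col-0 are therefore given as descriptions, without a test.

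Members measured 2.01 to 14.5 times Col-0 in pifq, with a median of 2.71. In pifq;bzr1-1D they measured 0.08 to 0.50 times pifq, with a median of 0.43. Over all 610 genes raised in pifq the median of that ratio was 0.64. Both ratios use the pifq libraries, so they are not independent. The summed level of the members was 1219 and 1220 CPM in the Col-0 libraries, 1069 and 1041 in bzr1-1D, 3674 and 3655 CPM in pifq, and 1557 and 1547 CPM in the combined mutant. The libraries of each genotype lay close together, and the sum in the combined mutant stayed above both genotypes with intact PIFs. Abundant members weigh most in these sums. AT1G54010, AT3G20370 and CR88 had mean levels of 103, 35.8 and 87.3 CPM in Col-0. In the combined mutant they had 221, 93.7 and 121 CPM.

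**Figure D1:**
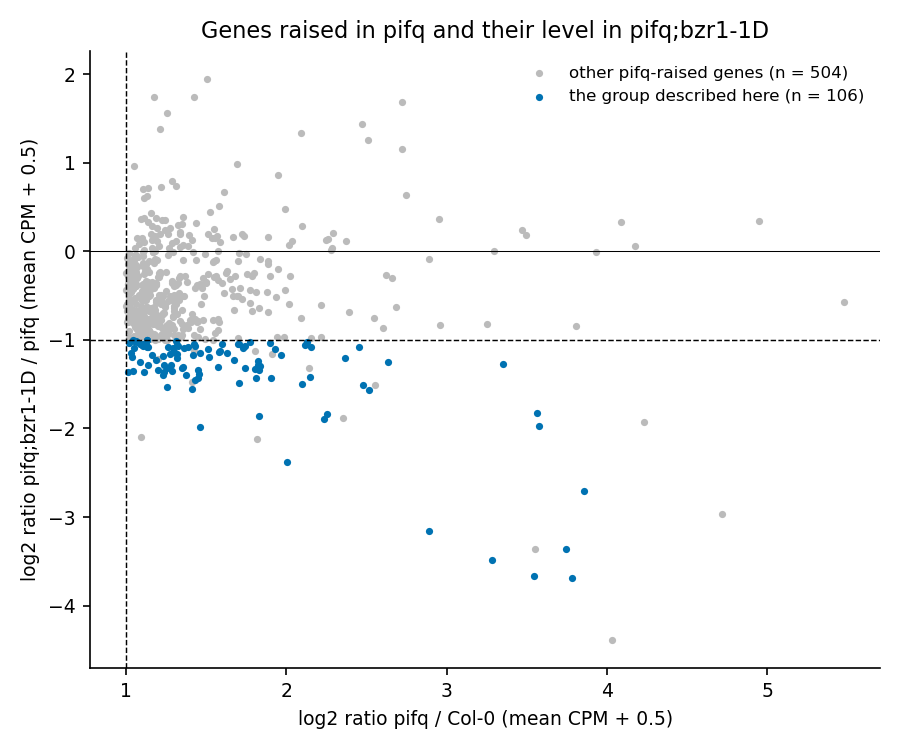
Each point is 1 of the 610 genes raised in pifq, placed by its log2 ratio of pifq to Col-0 (horizontal) and its log2 ratio of pifq;bzr1-1D to pifq (vertical), with the rule's cuts as dashed lines. The 106 members fill the band under the lower dashed line, which the rule fixed.

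The cuts ran through a continuous range of values. APR2, at 2.01 times Col-0 in pifq, was the member nearest that cut, while NAP57, which encodes the pseudouridine synthase of ribosomal RNA, stood just outside at 1.99 and ADG1, a starch synthesis gene, at 1.98. CRF11 was the member nearest the other cut, with pifq;bzr1-1D at 0.49996 times pifq, and CLH1, at 0.5004, was just outside. AT5G27120, at 0.52 times Col-0 in bzr1-1D, lay just inside the lower bound for that genotype, and HDA3, a nucleolar histone deacetylase gene, just outside at 0.49.

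The rule set no cut on pifq;bzr1-1D against Col-0, but both genotypes entered it, so the choice of members bears on the values of that comparison. In CPM, 84 of the 106 members lay within 1.5-fold of Col-0 in the combined mutant and 62 within 1.25-fold, while 12 measured 1.5 to 2 times and 10 at least 2 times Col-0. The share of the difference between pifq and Col-0 that was gone in the combined mutant ranged from 64.3% to 121%, with a median of 92.5%. For 28 members it was 100% or more, meaning a level at or under that of Col-0 in CPM. Over all 15738 genes with a genotype mean of at least 5 CPM, the median of pifq;bzr1-1D to Col-0 was 0.93, and 10028 were under Col-0. The quartiles over those genes, 0.80 and 1.08, both lay within 1.25-fold of Col-0. For members the median was 1.12, with quartiles of 1.00 and 1.41. Lying near Col-0 was therefore not particular to members.

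edgeR's quasi-likelihood test, fitted over all 21221 genes with enough counts, called 59 members higher and 3 lower in pifq;bzr1-1D than in Col-0 at an adjusted p under 0.05, and 44 were not called. All 106 members passed the filter on low counts. Of all genes tested, 29.3% were called higher, 25.0% lower and 54.3% either way in that comparison. The share of members called at all, 58.5%, was near the background, while the direction was mostly upward. That direction was not particular to members. In CPM, 499 of the 504 other genes raised in pifq were above Col-0 in the combined mutant, with a median ratio of 1.68. For members it was 78 of 106 and 1.12, and the rule's cut against pifq favoured lower values in them. The members' median log2 fold change was 0.34, against 0.03 over all genes, and 15 members were called at a fold of 2 or more, where the background was 11.4%. The scale matters here: with library totals in place of TMM scaling factors the median of all genes moved from 0.03 to −0.11 on the log2 scale, the calls over all genes from 6212 higher and 5303 lower to 4169 higher and 8092 lower, and the members' calls to 51 higher and 5 lower.

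Against bzr1-1D, the matching genotype with intact PIFs, 74 members were called higher and 2 lower in pifq;bzr1-1D by edgeR's quasi-likelihood test, and 30 were not called. The rule set no cut on this ratio, but both genotypes entered it. The choice of members therefore bears on this comparison too, and the calls are a description. The background was 33.8% higher, 31.6% lower and 65.4% either way. The members' median log2 fold change was 0.56, against 0.02 over all genes. In CPM, 485 of the 504 other genes raised in pifq were above bzr1-1D in the combined mutant, with a median ratio of 1.62. For members it was 94 of 106 and 1.33. At a fold of 2 or more, 14 members were called, against a background of 16.8%. The 2 called lower were RPL3B and TSO2.

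**Figure D2:**
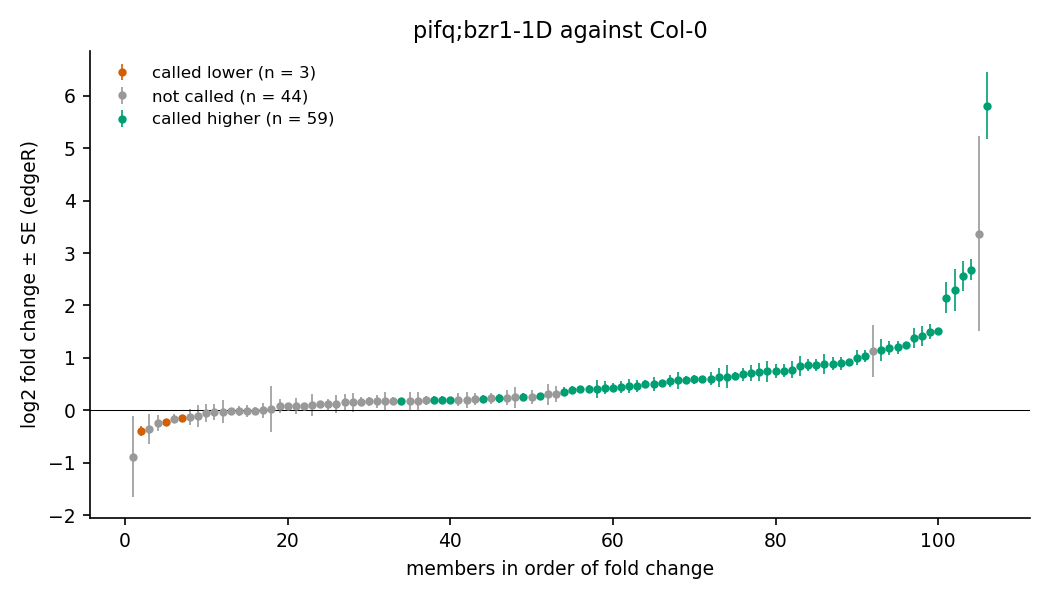
Each point is 1 member in order of its log2 fold change of pifq;bzr1-1D against Col-0 (vertical axis, with SE bars, n = 2 libraries per genotype), coloured by edgeR's call. The 59 members called higher fill the right side, 44 not called lie mostly around 0, and the 3 called lower are at the left.

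A function group was given to 64 of the 106 members from their annotation after their values had been seen, and the groups are used only to order the description. The largest had 14 genes of the nucleolus and the ribosome, where ribosomal RNA is made, trimmed, methylated and joined with ribosomal proteins. NOP56, a core protein of the particles that guide methylation of ribosomal RNA, measured 44.4 and 44.1 CPM in the Col-0 libraries, 34 and 32.5 in bzr1-1D, 105 and 105 CPM in pifq, and 42.2 and 43.3 CPM in the combined mutant. FIB2, which encodes fibrillarin, the methyltransferase of the same particles, measured 21.6 and 23.4 CPM in Col-0 libraries, 11.9 and 12.9 in bzr1-1D, 60.3 and 60.7 CPM in pifq, and 19.4 and 21.0 CPM in the combined mutant. AT5G27120, annotated as a NOP56-like protein, measured 27.9 and 27.0 CPM in Col-0 libraries, 14 and 14 in bzr1-1D, 65.9 and 66.3 CPM in pifq, and 22.7 and 22.3 CPM in the combined mutant. All 3 were lowest in bzr1-1D, highest in pifq and a little under Col-0 in the combined mutant on the CPM scale.

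For these 3, the test of pifq;bzr1-1D against Col-0 gave log2 fold changes of 0.08 ± 0.05 (SE) for NOP56 (edgeR adjusted p = 0.157), −0.02 ± 0.07 for FIB2 (edgeR adjusted p = 0.867) and −0.15 ± 0.06 for AT5G27120 (edgeR adjusted p = 0.0384). The call for AT5G27120 was lost, with adjusted p of 0.0532 to 0.203, without a filter on low counts, with DESeq2, and without Col-0 replicate 1 or either pifq;bzr1-1D library. Against bzr1-1D all 3 were called higher in pifq;bzr1-1D, with log2 fold changes of 0.47, 0.81 and 0.80 in the same order.

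RPL3B, a gene for the large-subunit protein L3, measured 13.3 and 12.8 CPM in Col-0 libraries, 12.4 and 13.3 in bzr1-1D, 37.3 and 36.2 CPM in pifq, and 9.38 and 8.44 CPM in the combined mutant. Its combined-mutant libraries lay below those of every other genotype. The fold change against Col-0 was −0.40 ± 0.09 on the log2 scale (edgeR adjusted p = 0.000361), the lowest among the members called. The other ribosomal protein genes were AT4G13170 (L13 family), AT3G06680 (L29e), AT2G32220 (L27e), AT3G04770 (RPSAb, small-subunit protein SA) and AT3G06320 (L33), besides AT4G12600 of the L7Ae family, whose relatives also sit in RNA-guiding particles. They measured 2.15 to 2.44 times Col-0 in pifq and 0.89 to 1.04 times Col-0 in the combined mutant. Ribosomal proteins come from families of near-identical genes, so how the authors' counting shared reads among copies can move these values.

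The group also held HDT4, of the plant histone deacetylase family found in nucleoli, the Brix-domain gene AT3G15460, the WD-40 gene AT4G04940 and the methyltransferase gene AT4G26600. The last had the group's highest ratio of the combined mutant to Col-0 (1.82). It measured 5.73 and 4.57 CPM in Col-0 libraries, 6.06 and 5.89 in bzr1-1D, 20.6 and 20.5 CPM in pifq, and 10.03 and 9.50 CPM in the combined mutant. It was called higher than Col-0 (log2 fold change 1.03 ± 0.11, edgeR adjusted p = 1.11e-09). AT4G04940 and AT4G13170 were also called higher, by 0.69 ± 0.12 and 0.18 ± 0.06 on the log2 scale (edgeR adjusted p = 8.31e-06 and 0.0146). For AT4G13170 the CPM libraries overlapped, with 25.6 and 27.1 in Col-0 and 26.7 and 27.2 in the combined mutant. Over the 14 genes, 3 were called higher than Col-0 in the combined mutant, 2 lower and 9 not (background 29.3% higher, 25.0% lower). In CPM, the median share of the pifq difference that was gone was 103%, and the median ratio of bzr1-1D to Col-0 was 0.77. In edgeR's test the group's median log2 fold change of pifq;bzr1-1D over Col-0 was 0.11.

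**Figure D3:**
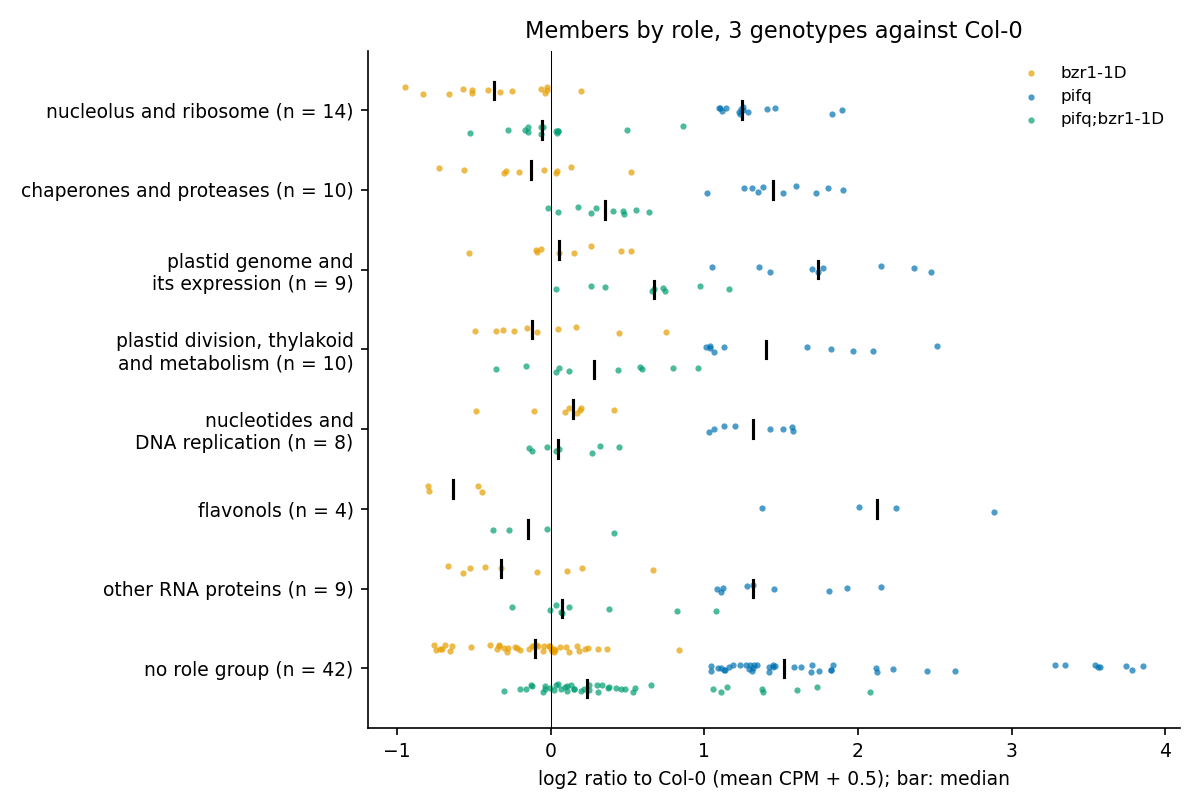
Each point is 1 member, grouped by function, at its log2 ratio to Col-0 in bzr1-1D, pifq or pifq;bzr1-1D, and black bars are group medians. On the CPM scale used here, combined-mutant medians of the nucleolus and ribosome and flavonol groups lie at or under 0. That of the plastid genome and expression group lies farthest to the right.

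Annotation terms, looked up for all genes with a genotype mean of at least 5 CPM, set these members beside the rest of their class. The ribosome is the annotated place of 6 members (5.66%), of 2 of the 504 other genes raised in pifq (0.397%) and of 302 of 15738 genes in all (1.92%). The 302 ribosome genes together had a median of 1.24 times Col-0 in pifq, with 261 above 1, a median of 0.66 for pifq;bzr1-1D against pifq and 0.76 for bzr1-1D against Col-0. Over all 15738 genes the same medians were 0.95, 0.96 and 0.99. The 119 genes of ribosomal RNA processing or ribosome biogenesis, 5 of them members, had medians of 1.33, 0.64 and 0.77. For pifq;bzr1-1D against Col-0 the medians were 0.81 for the ribosome genes, 0.88 for these 119 and 0.93 over all genes. The ratios share libraries, and none of these class medians reached the rule's cuts of 2 and 0.5. The 2143 genes placed in the plastid had medians of 1.2, 0.84 and 0.95, and 32 of them were members. The plastid share among members, 30.2%, was near that of the other genes raised in pifq, 28.8%. These terms were picked with the values known.

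**Figure D4:**
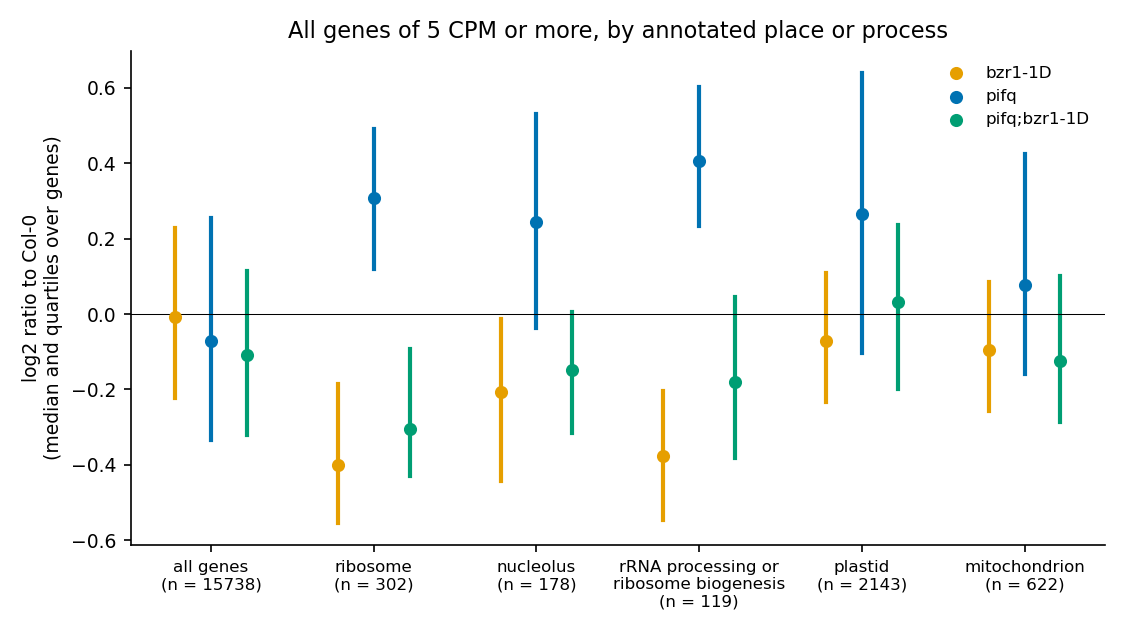
Points are the medians and bars the quartiles, over all genes with at least 5 CPM in an annotation class, of the log2 ratio to Col-0 in bzr1-1D, pifq and pifq;bzr1-1D. Medians of ribosome and ribosomal RNA processing genes sit above 0 in pifq and below 0 in both genotypes with bzr1-1D. In pifq;bzr1-1D the bar of ribosomal RNA processing genes crosses 0, and the median over all genes also lies below 0.

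Chaperones and proteases, which fold, refold or remove proteins, made up 10 members. CR88, the Hsp90 of the plastid, was among the members with the most counts: it measured 87.2 and 87.4 CPM in Col-0 libraries, 72.1 and 70.5 in bzr1-1D, 303 and 308 CPM in pifq, and 120 and 123 CPM in the combined mutant. Its combined-mutant libraries lay between pifq and Col-0 (log2 fold change 0.61 ± 0.04 against Col-0, edgeR adjusted p = 4.09e-15). Cpn60beta2, a subunit of the plastid chaperonin that helps assemble Rubisco, measured 72.8 and 84.3 CPM in Col-0 libraries, 51.3 and 43.2 in bzr1-1D, 206 and 197 CPM in pifq, and 79.7 and 83.0 CPM in the combined mutant. Here the combined mutant overlapped Col-0, although edgeR's test called it higher by 0.20 ± 0.06 on the log2 scale (adjusted p = 0.00404). Its partner subunit gene Cpn60alpha2 measured 2.30 and 2.53 CPM in Col-0, 8.50 and 8.16 CPM in pifq, and 3.52 and 4.03 CPM in the combined mutant.

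Mitochondrial members of the group included HSP60-2, the chaperonin, and LON1, a protease. HSP60-2 measured 12.9 and 11.8 CPM in Col-0, 33.7 and 32.2 CPM in pifq, and 15.3 and 15.3 CPM in the combined mutant. LON1 measured 7.5 and 6.28 CPM in Col-0 libraries, 10.5 and 9.76 in bzr1-1D, 19.8 and 21.4 CPM in pifq, and 9.69 and 8.88 CPM in the combined mutant, so its level in the combined mutant was above Col-0 (log2 fold change 0.56 ± 0.11, edgeR adjusted p = 4.89e-05) and beside that of bzr1-1D. The rest of the 10 genes were AR192, a GrpE-type helper of Hsp70, the Hsp40-type gene AT3G17830, ROC2 and AT3G12340, which encode prolyl isomerases, and the prefoldin gene AT5G27330. Over the 10 genes, 8 were called higher than Col-0 in the combined mutant and 2 were not called, against a background of 29.3% higher.

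The plastid genome and its expression gave 9 members, with the least complete return of the groups: the median share of the pifq difference that was gone was 79.0%, and the median level was 1.59 times Col-0. FLN2, a fructokinase-like protein that attaches to the plastid-encoded RNA polymerase, measured 21.3 and 21.7 CPM in Col-0 libraries, 22 and 22.6 in bzr1-1D, 74.0 and 75.3 CPM in pifq, and 38.4 and 34.3 CPM in the combined mutant. EMB3120, named for the embryo defect of its mutant, measured 3.84 and 3.99 CPM in Col-0 libraries, 4.69 and 4.90 in bzr1-1D, 23.4 and 24.8 CPM in pifq, and 8.10 and 8.19 CPM in the combined mutant. In both genes the combined mutant lay between the other genotypes without overlap, at log2 fold changes over Col-0 of 0.92 ± 0.06 (edgeR adjusted p = 1.43e-14) and 1.2 ± 0.12 (edgeR adjusted p = 1.96e-10).

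AT2G27402, annotated as a plastid transcriptionally active protein, had the group's highest ratio of the combined mutant to Col-0 (2.24), with 2.21 and 2.68 CPM in Col-0 libraries, 3.71 and 3.75 in bzr1-1D, 14.9 and 14.4 CPM in pifq, and 6.34 and 5.84 CPM in the combined mutant. GYRA, the A subunit of the organelle DNA gyrase, came nearest to Col-0 in the group, with 14.2 and 13.5 CPM in Col-0, 29.6 and 28.9 CPM in pifq, and 14.6 and 13.9 CPM in the combined mutant. The others were WHY3, a single-stranded DNA-binding protein, CPZ, which trims the ends of plastid transfer RNAs, the polymerase-related gene AT2G41950, the SWIB-domain gene AT4G34290 and AT5G48470. All but GYRA were called higher than Col-0 in the combined mutant (background 29.3%), and all 9 were called higher than bzr1-1D (background 33.8%).

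Plastid division, thylakoids and plastid metabolism gave 10 members. FTSZ1-1, the tubulin-like protein of the plastid division ring, measured 15.6 and 15.8 CPM in Col-0 libraries, 13.6 and 12.8 in bzr1-1D, 50.2 and 51.7 CPM in pifq, and 20.6 and 22.2 CPM in the combined mutant. GBSS1, the starch synthase that makes amylose, measured 3.72 and 3.75 CPM in Col-0 libraries, 4.3 and 4.2 in bzr1-1D, 13.9 and 15.1 CPM in pifq, and 5.35 and 6.33 CPM in the combined mutant. EMB2729, of the alpha-amylase family, measured 3.32 and 3.41 CPM in Col-0 libraries, 3.01 and 2.92 in bzr1-1D, 20.5 and 22.7 CPM in pifq, and 6.84 and 7.14 CPM in the combined mutant. All 3 stayed above Col-0 in the combined mutant without overlap, by log2 fold changes of 0.58 ± 0.07, 0.75 ± 0.14 and 1.19 ± 0.13 in that order (edgeR adjusted p = 1.82e-08, 1.76e-05 and 1.82e-09).

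NdhU and PnsL3 encode subunits of the thylakoid NDH complex, which feeds electrons back around photosystem I. NdhU measured 4.71 and 4.67 CPM in Col-0 libraries, 7.85 and 8.64 in bzr1-1D, 22.5 and 20.9 CPM in pifq, and 6.81 and 7.88 CPM in the combined mutant. PnsL3 measured 3.37 and 2.77 CPM in Col-0 libraries, 4.53 and 4.2 in bzr1-1D, 13.7 and 13.3 CPM in pifq, and 5.83 and 5.59 CPM in the combined mutant. Both were higher in bzr1-1D than in Col-0 in each library, unlike NOP56 and FIB2. AT4G38100, a thylakoid curvature protein gene, CYP97A3, a carotenoid hydroxylase gene, the lysine synthesis gene AT2G44040 and FIB, a fibrillin gene, measured 0.90 to 1.09 times Col-0 in CPM in the combined mutant. With TMM factors, AT4G38100, CYP97A3 and AT2G44040 were called higher than Col-0, by 0.25, 0.19 and 0.23 on the log2 scale (edgeR adjusted p = 0.00628, 0.0357 and 0.0197). FIB was not called. Over the group's 10 genes, 8 were called higher than Col-0, 1 lower and 1 not, against a background of 29.3% higher and 25.0% lower.

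APR2, the reductase of sulphate assimilation, measured 31.8 and 29.4 CPM in Col-0 libraries, 22.8 and 20.4 in bzr1-1D, 62.0 and 62.3 CPM in pifq, and 24.0 and 23.8 CPM in the combined mutant. Its share of the pifq difference that was gone, 121%, was the highest of all 106 members, and it was called lower than Col-0 (log2 fold change −0.23 ± 0.06, edgeR adjusted p = 0.00237), a call lost without Col-0 replicate 1 (adjusted p = 0.0841). The sister genes APR3 and APR1 missed the pifq cut, and had mean levels of 36.9 and 5.43 CPM in Col-0, 57.3 and 7.62 CPM in pifq, and 17.1 and 2.85 CPM in the combined mutant.

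Nucleotide supply and DNA replication gave 8 members. RNR1, the large subunit of ribonucleotide reductase, which makes the building blocks of DNA, measured 21.8 and 20.6 CPM in Col-0 libraries, 22.8 and 23.5 in bzr1-1D, 43.0 and 44.8 CPM in pifq, and 18.7 and 20.2 CPM in the combined mutant. TSO2, a small subunit of the same enzyme, measured 13.4 and 13.3 CPM in Col-0 libraries, 17.7 and 18.3 in bzr1-1D, 28.4 and 28.6 CPM in pifq, and 13.5 and 14 CPM in the combined mutant. Neither was called against Col-0 in the combined mutant (edgeR adjusted p = 0.944 for RNR1 and 0.0703 for TSO2), and TSO2 was called lower than bzr1-1D by 0.28 on the log2 scale.

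DUT1, which removes dUTP, RECQ4A, a DNA helicase, and AT4G18440, annotated to the fumarase and aspartase family, were likewise not called against Col-0. UPP, of uracil salvage, AT2G37690, of purine synthesis, and EMB3127, annotated to the amino acid dehydrogenase family, were called higher by 0.51, 0.59 and 0.46 on the log2 scale (edgeR adjusted p = 0.00148, 3.58e-07 and 0.00356). In this group the median ratio of bzr1-1D to Col-0 was 1.11, against 0.77 in the nucleolus and ribosome group.

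Flavonols, pigments that plants make in response to light, gave 4 members. MYB111, a transcription factor that switches on flavonol synthesis, measured 4.45 and 4.23 CPM in Col-0 libraries, 2.50 and 2.06 in bzr1-1D, 19.0 and 18.9 CPM in pifq, and 3.73 and 2.73 CPM in the combined mutant. CHIL, a chalcone isomerase-like helper of the first steps, measured 1.42 and 1.27 CPM in Col-0 libraries, 0.43 and 0.70 in bzr1-1D, 11.8 and 14.5 CPM in pifq, and 0.813 and 1.24 CPM in the combined mutant. In both genes the combined mutant lay under Col-0 in each library and above bzr1-1D in each library. Neither was called against Col-0 (edgeR adjusted p = 0.196 and 0.311). MYB111 was called lower without pifq;bzr1-1D replicate 1 (adjusted p = 0.0352) and with library totals (adjusted p = 0.0347).

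The sugar-adding enzymes of the pathway completed the group. UGT78D1 measured 4.71 and 4.62 CPM in Col-0 libraries, 3.44 and 3.13 in bzr1-1D, 24.6 and 23.6 CPM in pifq, and 6.78 and 5.96 CPM in the combined mutant, and it was called higher than Col-0 by 0.61 ± 0.12 on the log2 scale (edgeR adjusted p = 7.93e-05). UGT78D2 measured 2.70 and 2.97 CPM in Col-0 libraries, 2.03 and 1.77 in bzr1-1D, 7.37 and 8.93 CPM in pifq, and 3.02 and 2.55 CPM in the combined mutant. The 4 genes were 0.57 to 0.73 times Col-0 in bzr1-1D, and all 4 were called higher in pifq;bzr1-1D than in bzr1-1D (background 33.8%).

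A list of 23 flavonoid and anthocyanin genes had 22 found in the files, 3 of them members (MYB111, UGT78D1 and UGT78D2) and 7 under 0.5 CPM in every genotype. Of the 19 others, 12 passed the filter on low counts. In pifq;bzr1-1D against Col-0, edgeR's test called 3 of these 12 higher, 5 lower and 4 neither way. The background was 29.3% higher and 25.0% lower, and the median log2 fold change of the 12 was −0.14. The list holds FLS1 and TT5, which met the rule's values and were left out by name. FLS1 measured 0.81 times Col-0 in bzr1-1D and 1.14 times Col-0 in the combined mutant, with 98.7% of the pifq difference gone. For TT5 these values were 0.99, 1.69 and 75.1%. CHS, the first enzyme of the pathway, had mean levels of 7.85 CPM in Col-0, 2.55 CPM in bzr1-1D, 136 CPM in pifq and 6.04 CPM in the combined mutant, and stayed out of the members because its bzr1-1D level was below the bound and by its name. MYBL2, a repressor of the anthocyanin branch, went the other way, with mean levels of 49.7 CPM in Col-0, 15.7 CPM in pifq and 20.9 CPM in the combined mutant.

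Another 9 members encode RNA helicases and RNA-binding or RNA-modifying proteins. PMH1, a mitochondrial RNA helicase, measured 17.9 and 19.2 CPM in Col-0 libraries, 14.2 and 13.1 in bzr1-1D, 39.3 and 42.6 CPM in pifq, and 19.2 and 19.8 CPM in the combined mutant. The transfer RNA methyltransferase gene AT3G56330 kept more of its difference, with 1.57 and 1.41 CPM in Col-0, 8.38 and 8.32 CPM in pifq, and 3.59 and 3.79 CPM in the combined mutant. In the group, which also held PPR596, GR-RBP3 and the pseudouridine synthase gene AT2G30320, 5 genes were called higher than Col-0 in the combined mutant and 4 were not called. Of all genes tested, 29.3% were called higher.

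**Figure D5:**
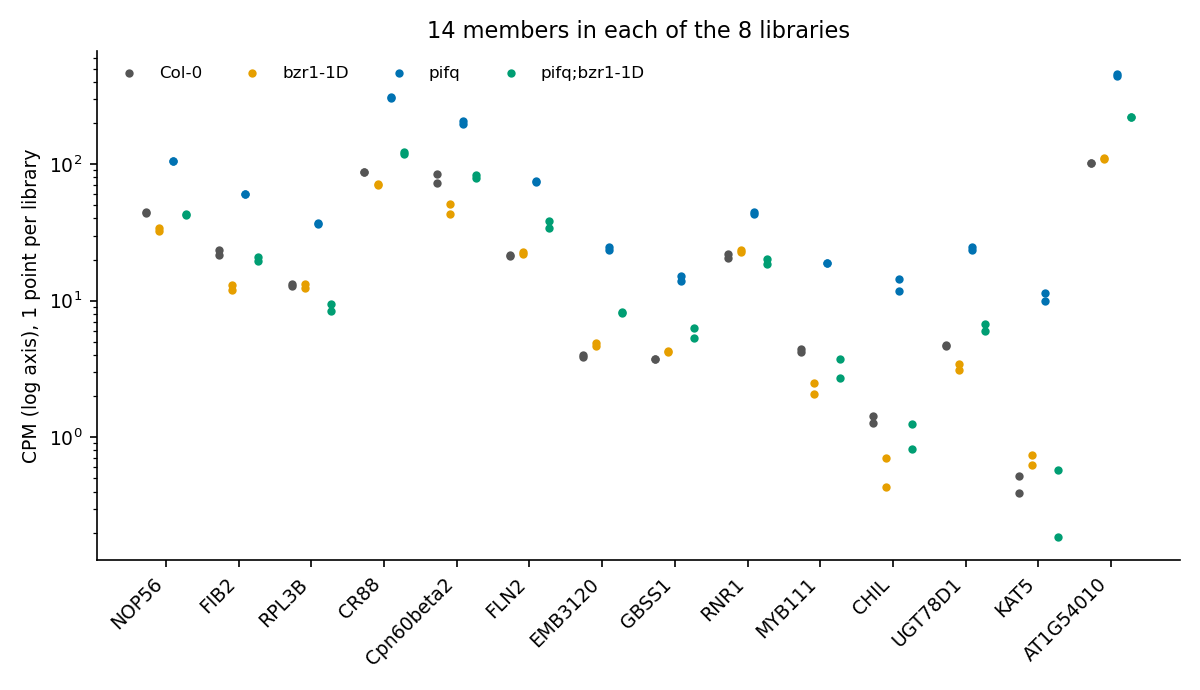
Points are the CPM of 14 members in each of the 8 libraries on a log axis, coloured by genotype. The pifq libraries stand above all others for each gene, and the rule fixed the higher pifq means. The combined mutant lies near Col-0 for NOP56 and FIB2 but between pifq and Col-0 for FLN2, EMB3120 and AT1G54010.

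The 42 members without a function group included those with the highest level and those with the largest ratios. AT1G54010, a GDSL-type lipase gene, had the highest mean in pifq of all members: it measured 102 and 103 CPM in Col-0 libraries, 112 and 108 in bzr1-1D, 458 and 441 CPM in pifq, and 221 and 222 CPM in the combined mutant. AT3G20370, a TRAF-like gene, measured 36.4 and 35.2 CPM in Col-0 libraries, 31.1 and 31.0 in bzr1-1D, 202 and 194 CPM in pifq, and 92.6 and 94.8 CPM in the combined mutant. Both stayed well above Col-0 in the combined mutant, by 1.25 ± 0.04 (edgeR adjusted p = 2.08e-24) and 1.52 ± 0.05 (edgeR adjusted p = 2.16e-24) on the log2 scale.

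CRF11, of the AP2/ERF transcription factor family, measured 40.0 and 40.3 CPM in Col-0 libraries, 25.0 and 21.9 in bzr1-1D, 89.3 and 87.7 CPM in pifq, and 45.2 and 42.8 CPM in the combined mutant. AT3G06530, an ARM-repeat gene, measured 33.6 and 28.1 CPM in Col-0 libraries, 25.1 and 27.9 in bzr1-1D, 74.5 and 80.3 CPM in pifq, and 37.4 and 38.7 CPM in the combined mutant. Both were called higher than Col-0, by 0.28 ± 0.05 and 0.41 ± 0.07 on the log2 scale (edgeR adjusted p = 4.94e-05 and 2.44e-06), and neither had overlapping libraries.

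Several members were close to silent in Col-0. KAT5, a thiolase that shortens fatty acids, measured 0.523 and 0.389 CPM in Col-0 libraries, 0.625 and 0.741 in bzr1-1D, 9.93 and 11.4 CPM in pifq, and 0.576 and 0.186 CPM in the combined mutant. Its ratio of pifq;bzr1-1D to pifq, 0.08, was among the lowest of the members. AT1G52770, annotated to the phototropism-related NPH3 family, had no count in either Col-0 library and 6.87 and 5.88 CPM in pifq, a mean at least 117-fold higher than Col-0, whose floor of 3 counts over both libraries was used. In bzr1-1D it had 1 count and in pifq;bzr1-1D 2 counts over both libraries, so all 3 genotypes were at or under the floor.

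The 5 members with the highest ratio of pifq;bzr1-1D to Col-0 were AT3G59340, AIG1, MSRB6, AT3G16670 and AT3G20370. AT3G59340, of a solute carrier family, measured 1.08 and 0.73 CPM in Col-0 libraries, 0.469 and 0.329 in bzr1-1D, 13.6 and 14 CPM in pifq, and 5.93 and 4.90 CPM in the combined mutant, a log2 fold change over Col-0 of 2.69 ± 0.19 (edgeR adjusted p = 7.52e-14). MSRB6, which repairs oxidised methionine, measured 0.32 and 0.633 CPM in Col-0 libraries, 0.117 and 0.123 in bzr1-1D, 10.9 and 11.4 CPM in pifq, and 2.13 and 2.79 CPM in the combined mutant (log2 fold change 2.57 ± 0.29, edgeR adjusted p = 2.52e-09). AIG1, a defence-related GTP-binding protein gene, had 1 count over both Col-0 libraries, 5.16 and 6.01 CPM in pifq, and 1.12 and 1.30 CPM in the combined mutant. AT3G16670, annotated to the pollen allergen and extensin family, measured 0.553 and 0.292 CPM in Col-0 libraries, 5.16 and 5.28 CPM in pifq, and 1.69 and 2.11 CPM in the combined mutant. In all 5 genes the libraries of the combined mutant lay below pifq and above Col-0. The 5 were picked for their high ratio to Col-0, and the rule set the cut under pifq. This order and the p-values against Col-0 therefore follow from the choice and are descriptions.

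AT3G05727, AT4G22505 and AT1G52990 were further members with large ratios. AT3G05727, annotated as a binding protein of an S locus-related glycoprotein, measured 0.116 and 0.584 CPM in Col-0, 11.9 and 11.7 CPM in pifq, and 1.15 and 1.61 CPM in the combined mutant. AT4G22505, a lipid-transfer-like gene, measured 0.174 and 0.438 CPM in Col-0, no count in bzr1-1D, 11.7 and 8.93 CPM in pifq, and 0.542 and 0.559 CPM in the combined mutant. AT1G52990, a thioredoxin-family gene, measured 0.174 and 0.195 CPM in Col-0, 5.67 and 6.65 CPM in pifq, and 0.0678 and 0.124 CPM in the combined mutant. Among these, AT1G52990 was at or under Col-0 in the combined mutant, and AT3G05727 and AT4G22505 were above Col-0 in each library. AT4G22505 was not called against Col-0 (edgeR adjusted p = 0.0553).

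Members lay on all 5 chromosomes, with 21, 14, 30, 22 and 19 on chromosomes 1 to 5. Chromosome 3 held 28.3% of the members and 19.8% of all genes with at least 5 CPM. The densest run was on chromosome 1, where 7 members (PLDALPHA2, AT1G52590, AT1G52600, AT1G52770, AT1G52870, AT1G52990 and AT1G54010) fell among 92 neighbouring genes. These 7 were all of the genes in the run at 2 or more times Col-0 in pifq, 7.61% of the run against 3.91% of all genes with at least 5 CPM, a share that follows from picking the run for its members. Another 10 genes of the run, 10.9%, were at 0.5 or less, against 4.71% of all such genes. AT1G52590 measured 4.51 and 4.38 CPM in Col-0 libraries, 4.61 and 4.28 in bzr1-1D, 16.6 and 17.5 CPM in pifq, and 4.17 and 4.47 CPM in the combined mutant. AT1G52600, a signal-peptidase-family gene, measured 15.6 and 16 CPM in Col-0 libraries, 33 and 33.1 CPM in pifq, and 13.2 and 12.2 CPM in the combined mutant, and was not called against Col-0 (edgeR adjusted p = 0.106). Without these 7 genes, 59 members were called in pifq;bzr1-1D against Col-0 in place of 62. Around the mutated genes, AT3G59340 lay 16 genes from PIF5, and no member lay within 50 genes of PIF1, PIF3, PIF4 or BZR1. Whether chromosome segments linked to the mutations play a part was not tested.

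Counts of the mutated genes and of tissue markers frame these values. Mean levels of PIF1, PIF3 and PIF5 were 47.6, 209.5 and 35.8 CPM in Col-0, 21.8, 111 and 11.3 CPM in pifq, and 19.6, 117 and 19.8 CPM in the combined mutant. PIF4 measured 14.8 CPM in Col-0, 25.4 CPM in pifq and 46.1 CPM in the combined mutant. The labels do not give the alleles, so whole-gene counts do not check them. The summed level of 10 green tissue markers was 25570 to 26590 CPM in Col-0, 22940 to 22950 CPM in bzr1-1D, 55760 to 56320 CPM in pifq and 61170 to 61640 CPM in the combined mutant. By edgeR's test all 10 were higher in pifq than in Col-0 (background 32.0% of all genes higher, 30.5% lower). Between the combined mutant and pifq, 3 were called higher and 5 lower (background 28.1% and 27.8%), with a median log2 fold change of −0.11, so the higher sum was not shared by most of these markers.

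Sums weight the most abundant genes of a list, and for the other marker lists counts by gene sometimes went another way. Summed root markers (20 genes) were 418 to 422 CPM in Col-0, 1097 to 1116 in bzr1-1D, 228 to 236 in pifq and 235 to 237 in the combined mutant. In bzr1-1D against Col-0, 7 of them were called higher and 11 lower (background 30.8% and 26.1%), with a median log2 fold change of −0.77, and in pifq against Col-0 1 was higher and 13 lower. Summed epidermis markers (9 genes) were 3737 to 3911, 5317 to 5424, 1457 to 1481 and 1432 to 1502 CPM in the same order of genotypes. Against Col-0, 3 of these were called higher and 3 lower in pifq (median 0.06 on the log2 scale), and 6 higher and 2 lower in the combined mutant (median 0.27). Vascular markers (10 genes) summed to 283 to 287, 290 to 297, 322 to 327 and 319 to 336 CPM, while 3 were called higher and 7 lower in pifq than in Col-0 (median −0.24). Seed and embryo markers (13 genes) summed to 204 to 209, 24.5 to 26.2, 60.5 to 61.8 and 101 to 102 CPM, with 4 called higher and 8 lower in pifq than in Col-0 (median −1.21), and 11 higher and 1 lower in the combined mutant than in pifq. Stomatal markers (11 genes) summed to 82.4 to 107 CPM over all libraries, with 8 called higher and 1 lower in pifq than in Col-0 (median 0.72). No marker found was under 0.5 CPM in every genotype. In bulk RNA from seedlings, fewer cells of a type and less RNA per cell cannot be told apart, and the part of tissue makeup in the members' values was not tested.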

How the data were processed

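Per the submitters' processing notes, reads were handled with TopHat and HTSeq and build TAIR9. Tool versions, strand setting and filters are not stated in these sources. The authors deposited raw read counts per gene for 8 libraries of total RNA made with a TruSeq RNA kit, per the labels' protocols. HTSeq's summary lines were left out of totals and tests. Reads that matched no gene were 2.68% to 4.27% and ambiguous reads 1.95% to 2.08% of all counts. Without a known strand setting, a gene and an overlapping antisense gene cannot be told apart.

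From the counts, CPM and the membership rule were computed, and symbols and annotation were taken by gene code from RefSeq TAIR10.1 (32709 codes matched, 809 did not). Because the builds differ, no coordinates or sequences are given and the planned look at promoter letters was not run. The rule's CHI was read as the chalcone isomerase gene TT5. Tests used edgeR 4.0.16 (R 4.3.3, limma 3.58.1): filterByExpr, TMM factors (0.942 to 1.043), 1 mean per genotype over 8 libraries, quasi-likelihood F tests, Benjamini-Hochberg adjustment, and a call at 0.05. SE was the log2 fold change divided by the square root of F. The procedure was tested on simulated data. DESeq2 1.42.0 was an alternative. A floor of 3 counts is 0.0872 to 0.186 CPM per library and covers counting error only.

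The members, lists and groups were chosen with earlier results of these data known. Members were named by level, by the sizes of their ratios, by list membership, and by a shared family or pathway. Gene codes beyond those were named after their values were seen. Replicates differed in the members by little more than counting noise (mean chi-square of 1.37 to 1.44 per member). The p-values therefore rest on a spread among libraries that may be purely technical. For genes with the highest counts the mean chi-square per gene was 12.7 to 22.1 in the other genotypes and 115 in pifq;bzr1-1D. The chloroplast share of counts was 1.50% and 0.93% in the pifq;bzr1-1D libraries. Libraries with the same replicate number did not deviate together (correlations of −0.02 to 0.04), so the numbers were not used as pairs.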

Additional observations from a re-analysis of the deposited data

How the results depend on the processing

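The rule gave 106 genes, 12 with cuts of 3-fold, and 77 to 125 under the other planned settings of added value, level and scaling. Leaving out each library gave 107 to 127. Members called in pifq;bzr1-1D against Col-0 numbered 49 to 64 with each library left out (higher 46 to 61, lower 1 to 3, the 1 without Col-0 replicate 1), and genes 9271 to 11577 (higher 4663 to 6254, lower 4543 to 5750). Against bzr1-1D the members numbered 69 to 81 (higher 66 to 78, lower 2 to 3) and genes 11940 to 14009 (higher 6122 to 7227, lower 5818 to 6782). With 1 library left out, the lone library is assumed to vary like the other groups. Requiring also a fold of 2 left 15 members against Col-0 (15 higher, 0 lower) among 2414 genes (1115 higher, 1299 lower), and 14 members against bzr1-1D (14 higher, 0 lower) among 3556 genes (1438 higher, 2118 lower). With library totals, a setting chosen after seeing the data, 5 members and 8092 genes were called lower than Col-0 and 4 members lower than bzr1-1D. The replicate block, which has no support from the labels or the data, gave 63 members among 11522 genes called against Col-0 and 77 among 13881 against bzr1-1D. DESeq2 called 52 members among 8621 genes and 69 among 11210. AT1G52600 was called lower than Col-0 with library totals (adjusted p = 0.0025) and not in the main test (edgeR adjusted p = 0.106). The 10 members whose fold changes were recomputed kept their sign under the settings computed. The balance of calls over all genes against Col-0 did turn, from 6212 higher and 5303 lower to 5659 and 5831 with RLE factors and to 4169 and 8092 with library totals, and the median over all genes moved from 0.03 to −0.0038 and −0.11. The cause of these shifts was not tested. The planned look at promoter letters was not run. At the lowest levels, under 1 CPM, counts limit what can be told apart.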
